A study of Homo sapiens with 8 samples.

Results

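The 10 genes described here encode the classical cadherins E-cadherin (CDH1), N-cadherin (CDH2) and P-cadherin (CDH3), the desmosomal cadherins desmoglein 2 and 3 (DSG2, DSG3) and desmocollin 2 and 3 (DSC2, DSC3), and 3 plaque proteins, beta-catenin (CTNNB1), plakoglobin (JUP) and desmoplakin (DSP). They were chosen by symbol, and all 10 had a row among the 13771 genes of the expression table. MCF10A cells are immortalised, non-tumorigenic epithelial cells of the human breast. DCIS.COM derives from the MCF10A series and grows in mice as lesions like ductal carcinoma in situ (DCIS). Cells of each line carried a stably integrated lentiviral pCDH vector, either empty (pCDH-empty) or with full-length HOTAIR, a long non-coding RNA (pCDH-HOTAIR), and all 4 groups were selected with 10 µg/ml puromycin. Each group had 2 RNA-seq libraries, 8 in all. Both lines grew with 5% horse serum, and the labels list epidermal growth factor, hydrocortisone, insulin and cholera toxin for MCF10A only, so that cell line and medium cannot be told apart. The sources used here do not say whether the transduced cells were clones or pools, nor that the libraries of a group came from separate cultures, and p-values then measure only the spread between these libraries, which may be technical.

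Classical cadherins hold epithelial cells together at adherens junctions, where their cytoplasmic tails bind beta-catenin or plakoglobin, and alpha-catenin links this complex to actin. Desmogleins and desmocollins do the same work in desmosomes, where plakoglobin and plakophilins bind their tails and desmoplakin ties the plaque to keratin filaments. Beta-catenin is also the transcriptional co-activator of Wnt signalling, and a rise of N-cadherin with a loss of E-cadherin is a classical marker of epithelial to mesenchymal transition (EMT).

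Library depth, recovered from the deposited values, was 19306864 to 34884841 reads. HOTAIR had 45 and 40 reads in MCF10A pCDH-empty and 4614 and 4827 in pCDH-HOTAIR, and 119 and 140 against 7166 and 6385 in DCIS.COM, the order the labels give. The DCIS.COM pCDH-empty 1 library stood apart, at a Euclidean distance of 46.4 (log2 CPM, over all genes) from its replicate and 50.2 to 51.3 from the pCDH-HOTAIR libraries, against 22.3 to 30.1 among the other 3 DCIS.COM libraries. Of 5 basal epithelial markers, all 5 were in the table, with a summed level of 13560 to 15610 CPM (read counts scaled to library size) in MCF10A and 1647 to 2036 in DCIS.COM. The 6 luminal markers, all in the table, summed to 4355 to 4553 CPM in MCF10A and 6239 to 7975 in DCIS.COM. None of 6 fibroblast markers had a row, and of 4 endothelial markers only PECAM1 had one, at 1.70 to 2.69 CPM in MCF10A and 10.1 to 13.3 in DCIS.COM. CD14 and CD68, the 2 of 4 leukocyte markers with a row, summed to 41.4 to 47.1 CPM in MCF10A and 5.63 to 6.55 in DCIS.COM. These sums are set by the most abundant genes of each list, and single markers could differ the other way. With the empty vector the basal TP63 was higher in DCIS.COM (log2 fold change 0.75, adjusted p = 9.55e-04, limma), the luminal KRT7 was lower (-0.60, adjusted p = 6.99e-04) and the luminal ESR1 had -0.45 (adjusted p = 0.07, not called). The part of these marker levels in the differences between the lines was not tested.

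Snail and ZEB factors, which repress cadherin genes during EMT, bind the E-box CACCTG, which reads as CAGGTG on the other strand. The genes of these factors were lower in DCIS.COM (values given with the other gene lists), but SNAI1, ZEB1 and ZEB2 entered the table only through MCF10A. With this difference in view, the 250 bases before the annotated start of each of the 10 genes were searched. The search was for these 6 letters on both strands, in RefSeq sequence of GRCh38.p14. Promoters were found for 8 of the 10 genes, all but CDH1 and CDH3, with 11 annotated starts. A match lay before 4 of these 11 starts (1 each of JUP, DSP, DSG2 and DSC2), and in 17.5% of 35116 promoters of the same length. A match is a description of the letters and not a measured binding site. The promoters of DSP, DSG2 and JUP (at the second of its 2 starts) are shown, each with 2 matches in capitals. That of DSG3, which had none, is shown beside them because DSP and DSG3 differed most between the lines with the empty vector. Not shown are DSC2, which had a match and was not called there, and CDH2, which had none and was called lower. Whether matches go with differences between the lines was not tested. All are written 5′ to 3′ on the strand of the gene.
DSP, chr6:7541421-7541670, plus strand: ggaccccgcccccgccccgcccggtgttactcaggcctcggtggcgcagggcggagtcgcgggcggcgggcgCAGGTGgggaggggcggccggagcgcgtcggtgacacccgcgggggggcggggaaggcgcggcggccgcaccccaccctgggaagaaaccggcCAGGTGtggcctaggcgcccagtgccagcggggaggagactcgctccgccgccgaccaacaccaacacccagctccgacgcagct
DSG2, chr18:31497927-31498176, plus strand: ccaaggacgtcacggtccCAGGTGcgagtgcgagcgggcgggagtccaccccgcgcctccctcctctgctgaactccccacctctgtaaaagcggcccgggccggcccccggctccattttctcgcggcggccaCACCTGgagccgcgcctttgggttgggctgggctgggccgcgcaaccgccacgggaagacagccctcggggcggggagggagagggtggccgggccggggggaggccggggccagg
JUP, chr17:41785977-41786226, minus strand: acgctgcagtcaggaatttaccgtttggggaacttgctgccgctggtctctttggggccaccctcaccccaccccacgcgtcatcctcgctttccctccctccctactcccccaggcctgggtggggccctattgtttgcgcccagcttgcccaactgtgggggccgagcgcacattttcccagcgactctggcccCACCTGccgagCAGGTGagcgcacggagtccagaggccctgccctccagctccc
DSG3, chr18:31447491-31447740, plus strand: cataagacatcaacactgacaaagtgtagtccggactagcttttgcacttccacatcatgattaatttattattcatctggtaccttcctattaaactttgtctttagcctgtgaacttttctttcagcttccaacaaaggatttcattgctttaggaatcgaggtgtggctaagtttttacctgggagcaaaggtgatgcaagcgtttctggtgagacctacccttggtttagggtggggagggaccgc
In DSP the matches began 178 and 85 bases before the start, in DSG2 232 and 116 bases before it, and in JUP 54 and 43 bases before it. The single match of DSC2 lay 156 bases before the first of its 2 starts.

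Levels of different genes were compared per kilobase of exon, as CPM divided by the length of all annotated exons joined. In MCF10A pCDH-empty the order was DSG3 (93.0 CPM per kb), CDH1 (70.04), DSP (68.1), JUP (56.7), CDH3 (55.6), DSG2 (55.1), CTNNB1 (33.3), DSC2 (22.4), DSC3 (13.7) and CDH2 (1.89). The neighbours from CDH1 down to DSG2 overlapped between libraries, and the other steps did not. With HOTAIR in MCF10A the same order held, with DSG3 at 86.2 and CDH2 at 3.02 CPM per kb, and there CDH1 overlapped with DSP and JUP with CDH3. In both DCIS.COM groups CTNNB1 came first, at 83.4 CPM per kb with the empty vector and 87.2 with HOTAIR, followed by CDH1 at 46.4 and 45.9. CDH2 was last again, at 1.19 and 0.949 CPM per kb. Between them in DCIS.COM pCDH-empty lay JUP (35.2), DSG2 (32.3), DSG3 (28.0), CDH3 (25.4), DSC2 (25.3), DSC3 (25.0) and DSP (19.9), of which JUP and DSG2, CDH3 and DSC2, and DSC2 and DSC3 overlapped between libraries. With HOTAIR the order below CDH1 was DSG2 (36.8), JUP (34.0), DSG3 (33.6), DSC2 (29.6), DSC3 (26.6), CDH3 (26.0) and DSP (17.2), and DSC3 and CDH3 overlapped. This order depended on the length used. With the canonical transcript in place of all exons CTNNB1 came first in all 4 groups, at 107 CPM per kb in MCF10A pCDH-empty, and CDH2 stayed last. In MCF10A, DSG3 then ranked 3 with the empty vector and 4 with HOTAIR, and CDH1 ranked 5 and 7, with DSP and DSG2 above CDH1 in both. In DCIS.COM pCDH-HOTAIR, DSG2 (61.2 CPM per kb) then came before CDH1 (57.9).

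The first question of the design is what HOTAIR did in each line. None of the 10 genes passed the test (limma, adjusted p under 0.05 and at least 1.5-fold) in either line, and the gene with the largest difference was CDH2, which was higher with HOTAIR in MCF10A and lower in DCIS.COM without reaching significance. Over all genes, 0.0218% (3 genes) were called in MCF10A and 0.0871% (12 genes) in DCIS.COM. At an unadjusted p under 0.05 stood 1 of the 10 in MCF10A (CDH2) against 7.28% of all genes, and 2 of the 10 in DCIS.COM (CDH2 and DSG3) against 17.5%. With limma-voom on the recovered reads none of the 10 was called either. The libraries of the vectors did not overlap for 5 of the 10 genes in MCF10A, where this held for 47.2% of all genes, and for 6 of the 10 in DCIS.COM, against 49.2%. The median log2 fold change of the 10 genes was 1.12e-05 in MCF10A and 0.0507 in DCIS.COM, and that of all genes was -0.00545 and 0.0104.

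N-cadherin, the mesenchymal and neuronal classical cadherin, was at 3.87 and 4.16 log2 CPM in the MCF10A pCDH-empty libraries (455 and 474 reads) and at 4.64 and 4.76 with HOTAIR (483 and 539 reads). Both HOTAIR libraries were above both empty-vector libraries. The CDH2 log2 fold change was 0.68 (SE 0.13, 95% confidence interval 0.38 to 0.98, n = 2 per group), a 1.61-fold difference at an adjusted p of 0.215 (limma). In DCIS.COM, CDH2 was at 3.47 and 3.26 log2 CPM with the empty vector (330 and 254 reads) and at 2.97 and 3.11 with HOTAIR (275 and 287 reads), so that both HOTAIR libraries were lower. Its log2 fold change there was -0.32 (interval -0.62 to -0.02, adjusted p = 0.274). The difference between the lines was tested as an interaction, which for CDH2 was -1.01 (SE 0.18, interval -1.43 to -0.58) at an adjusted p of 0.189. The interaction was called for 0 of the 10 genes by limma and by limma-voom, and for 0.0436% of all genes (6 genes). CDH2 and DSG3 had an unadjusted interaction p under 0.05, as had 10.5% of all genes.

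E-cadherin, the defining cadherin of epithelia, was at 8.62 and 8.84 log2 CPM in MCF10A pCDH-empty and 8.67 and 8.64 with HOTAIR, and at 8.20 and 8.08 against 8.14 and 8.11 in DCIS.COM. The vectors overlapped in both lines. The intervals of the CDH1 log2 fold change, -0.27 to 0.12 in MCF10A and -0.21 to 0.18 in DCIS.COM, lay within the 1.5-fold threshold. The same held in both lines for CDH3 (log2 fold change 0.09 in MCF10A and 0.04 in DCIS.COM), CTNNB1 (0.04 and 0.06), JUP (0.09 and -0.04), DSP (-0.05 and -0.21), DSG2 (-0.04 and 0.19), DSG3 (-0.11 and 0.26), DSC2 (-0.09 and 0.24) and DSC3 (0.05 and 0.09).

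**Figure D1:**
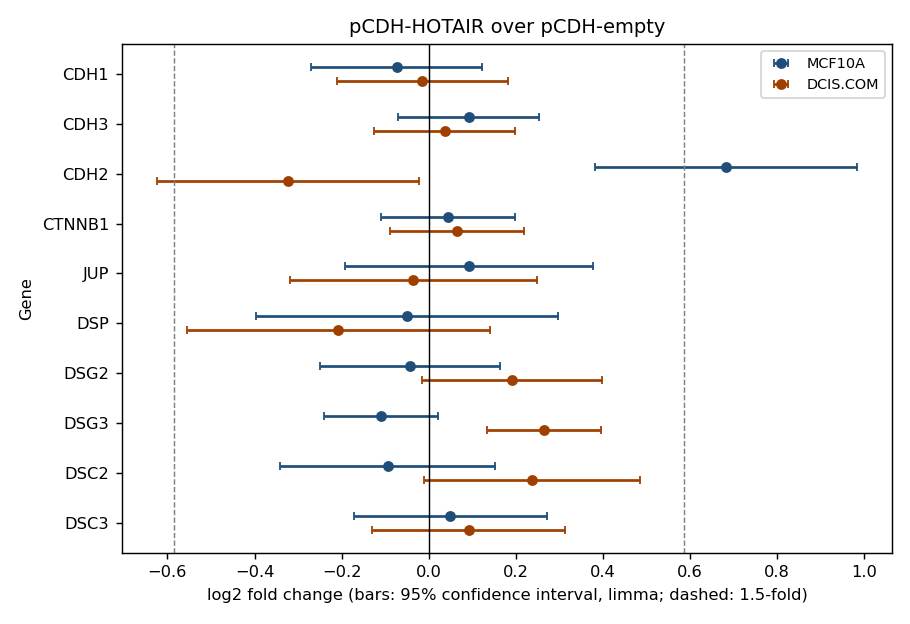
Log2 fold change of pCDH-HOTAIR over pCDH-empty (x axis) for each gene (y axis) in MCF10A (blue) and DCIS.COM (brown), with 95% confidence intervals from limma and dashed lines at 1.5-fold. The CDH2 intervals, 0.38 to 0.98 and -0.62 to -0.02, lie on opposite sides of zero, and those of the other 9 genes lie inside the dashed lines.

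Among the desmosomal cadherins, DSG3, the desmoglein of basal stratified epithelium, differed with the smallest error in DCIS.COM. It was at 7.28 and 7.29 log2 CPM with the empty vector and at 7.56 and 7.55 with HOTAIR. The groups did not overlap, and the log2 fold change of 0.26 (SE 0.06, interval 0.13 to 0.40) had an adjusted p of 0.156. In MCF10A, DSG3 was at 8.99 and 9.05 against 8.90 and 8.92 with HOTAIR, lower in both HOTAIR libraries by 0.11 (adjusted p = 0.780). The DSG3 interaction was 0.37 (interval 0.19 to 0.56, adjusted p = 0.262). DSG2 and DSC2, the most widely expressed desmoglein and desmocollin, had DCIS.COM log2 fold changes of 0.19 (adjusted p = 0.306) and 0.24 (adjusted p = 0.294).

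The DCIS.COM values of DSG2 and DSC2 depended on the library that stood apart, and that of DSG3 was 0.26 to 0.27 with any one of the 4 DCIS.COM libraries left out. Among the 4 DCIS.COM libraries, pCDH-empty 1 was the highest for CDH1, CDH2, CDH3, JUP and DSP and the lowest for DSG2, DSG3, DSC2 and DSC3, 9 of the 10 genes, and it was the highest or lowest for 78.7% of all genes. Without it the log2 fold change was 0.07 for DSG2 (adjusted p = 0.607), 0.07 for DSC2 (adjusted p = 0.611) and 0.26 for DSG3 (adjusted p = 0.0292, below the 1.5-fold threshold). Without pCDH-empty 2, which leaves pCDH-empty 1 as the lone control, the values were 0.31 for DSG2 (adjusted p = 0.0037), 0.41 for DSC2 (adjusted p = 6.48e-04), 0.27 for DSG3 (adjusted p = 0.00145) and -0.25 for JUP (adjusted p = 0.00595), and none reached 1.5-fold. The CDH2 log2 fold change was -0.22 (adjusted p = 0.488) without pCDH-empty 1 and -0.43 (adjusted p = 0.033, also under 1.5-fold) without pCDH-empty 2. JUP was at 7.64 and 7.22 log2 CPM in these control libraries and at 7.40 and 7.38 with HOTAIR, between them. With any 1 library of either line left out, the interaction ran from 0.35 to 0.40 for DSG3 and from -1.15 to -0.86 for CDH2. It ran from 0.12 to 0.35 for DSG2, 0.16 to 0.50 for DSC2 and -0.34 to 0.08 for JUP.

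The second comparison is between the lines. With the empty vector, CTNNB1 and DSC3 were higher in DCIS.COM than in MCF10A, CDH1, CDH2, CDH3, JUP, DSP, DSG2 and DSG3 were lower, and DSC2 did not pass the test. This made 2 of 10 called higher and 7 of 10 lower, against 22.5% and 23.8% of all genes (46.3% in either direction). With HOTAIR, 2 of 10 were called higher (CTNNB1 and DSC3) and 5 lower (CDH2, CDH3, JUP, DSP and DSG3), against 22% and 21.7% of all genes (43.7% in either direction). CDH1, DSG2 and DSC2 had adjusted p-values under the threshold there but differed by less than 1.5-fold. The median log2 fold change of the 10 genes was -0.68 with the empty vector and -0.69 with HOTAIR, beside -1.17e-04 and 0.00346 for all genes. The libraries of the lines did not overlap for 9 of 10 genes with the empty vector (81.6% of all genes) and for 10 of 10 with HOTAIR (89.2%). In bulk libraries, fewer cells with a transcript and less of it per cell cannot be told apart.

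**Figure D2:**
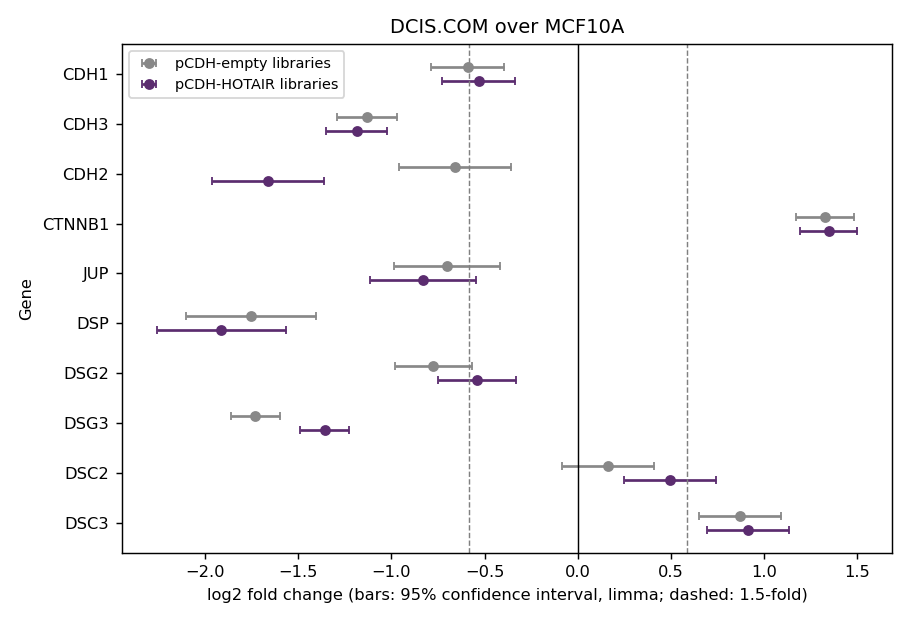
Log2 fold change of DCIS.COM over MCF10A (x axis) for each gene (y axis) between the pCDH-empty libraries (grey) and between the pCDH-HOTAIR libraries (purple), with 95% confidence intervals from limma and dashed lines at 1.5-fold. CTNNB1 (1.33 and 1.35) and DSC3 (0.87 and 0.91) lie right of the dashed line in both, and DSP (-1.76 and -1.91) and DSG3 (-1.73 and -1.36) lie farthest left with the empty vector.

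The classical cadherins were lower in DCIS.COM. P-cadherin, the cadherin of basal and myoepithelial breast cells, was at 8.46 and 8.49 log2 CPM in MCF10A pCDH-empty and at 7.43 and 7.25 in DCIS.COM pCDH-empty, with 8.56 and 8.57 against 7.37 and 7.38 in the HOTAIR libraries. No DCIS.COM library came near the MCF10A range. The CDH3 log2 fold change was -1.13 (SE 0.07, adjusted p = 2.61e-06) with the empty vector and -1.19 (adjusted p = 2.08e-06) with HOTAIR. CDH1, whose libraries are given above, did not overlap between the lines and had a log2 fold change of -0.59 (SE 0.08, adjusted p = 3.78e-04), a 1.51-fold difference that only just passed the fold threshold, and of -0.53 (adjusted p = 7.15e-04) with HOTAIR. CDH2 fell by 0.66 (SE 0.13, adjusted p = 0.0023) on the log2 scale with the empty vector and by 1.66 (adjusted p = 1.07e-05) with HOTAIR. Without MCF10A pCDH-empty 2, CDH1 (-0.48) and CDH2 (-0.51) no longer reached 1.5-fold, and without DCIS.COM pCDH-empty 2 neither did CDH1 (-0.53), CDH2 (-0.55) or JUP (-0.49).

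The armadillo proteins went in opposite directions. CTNNB1 was at 8.58 and 8.64 log2 CPM in MCF10A pCDH-empty and 8.62 and 8.69 with HOTAIR, and at 9.98 and 9.89 in DCIS.COM pCDH-empty and 9.99 and 10.0 with HOTAIR. Every DCIS.COM library was over a log2 unit above every MCF10A library. The fold change was 2.51 (log2 1.33, SE 0.07, adjusted p = 7.87e-07) with the empty vector and 2.54 (adjusted p = 7.34e-07) with HOTAIR. CTNNB1 overlaps ULK4 on the opposite strand, which also has a row in the table, and the sources used here do not say whether counting used strand. JUP was at 8.08 and 8.18 in MCF10A pCDH-empty, 8.20 and 8.24 with HOTAIR, and 7.22 to 7.64 in the 4 DCIS.COM libraries, a log2 fold change of -0.70 (SE 0.12, adjusted p = 0.00117) with the empty vector and -0.83 (adjusted p = 4.68e-04) with HOTAIR.

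Desmoplakin, the obligate link of desmosomes to keratin, was at 9.58 and 10.1 log2 CPM in MCF10A pCDH-empty and 9.85 and 9.72 with HOTAIR, and at 8.14 and 8.02 in DCIS.COM pCDH-empty and 7.94 and 7.81 with HOTAIR. The DSP level was 3.38-fold lower in DCIS.COM with the empty vector (log2 -1.76, SE 0.15, adjusted p = 1.78e-05) and 3.76-fold lower with HOTAIR (adjusted p = 1.1e-05). The MCF10A pCDH-empty libraries, which differed by about 0.5 log2 units, were the farthest apart of the replicate pairs for this gene.

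Of the desmogleins, DSG3 was 3.32-fold lower in DCIS.COM with the empty vector (log2 -1.73, SE 0.06, adjusted p = 8.96e-08) and 2.56-fold lower with HOTAIR (log2 -1.36, adjusted p = 2.91e-07), from the libraries given above. DSG2 was at 8.99 and 9.08 log2 CPM in MCF10A pCDH-empty and 8.93 and 9.04 with HOTAIR, against 8.14 and 8.37 and then 8.46 and 8.43 in DCIS.COM. The DSG2 log2 fold change was -0.78 (SE 0.09, adjusted p = 1.05e-04) with the empty vector and -0.54 (adjusted p = 8.8e-04, not called) with HOTAIR.

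The desmocollins did not follow the desmogleins. DSC3, the desmocollin that accompanies DSG3 in basal layers, was at 6.60 and 6.83 log2 CPM in MCF10A pCDH-empty, 6.75 and 6.78 with HOTAIR, 7.48 and 7.69 in DCIS.COM pCDH-empty and 7.70 and 7.65 with HOTAIR. All 4 DCIS.COM libraries were above all 4 MCF10A libraries, and DSC3 rose by 1.83-fold (log2 0.87, SE 0.10, adjusted p = 7.92e-05) with the empty vector and 1.88-fold (adjusted p = 6.15e-05) with HOTAIR. DSC2 was at 8.07 and 8.19 in MCF10A pCDH-empty, 8.04 and 8.03 with HOTAIR, 8.12 and 8.46 in DCIS.COM pCDH-empty and 8.55 and 8.52 with HOTAIR. Only the empty-vector groups overlapped, and the DSC2 log2 fold change was 0.16 (interval -0.08 to 0.41, adjusted p = 0.207) there and 0.50 (interval 0.25 to 0.74, adjusted p = 0.00384, not called) with HOTAIR. Without DCIS.COM pCDH-empty 2 it was -0.01 with the empty vector.

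Ratios within a library do not depend on its scaling, and 5 were compared between the 4 libraries of each line by an exact two-sided permutation test, whose smallest possible p is 0.0286. This test took the libraries of both vectors as replicates of a line, and its smallest p says only that the lines did not overlap. Single genes did not overlap between the lines for 81.6% of all genes with the empty vector and 89.2% with HOTAIR. No such share was computed for ratios. JUP over CTNNB1 ran from -0.51 to -0.42 (log2) in MCF10A and from -2.67 to -2.35 in DCIS.COM, a difference of -2.10 (p = 0.0286, Benjamini-Hochberg adjusted p = 0.0357, exact test). Each of these genes separated the lines by itself, in opposite directions. Their ratio could therefore not overlap, and its p adds nothing to the values of the single genes. DSG3 over DSG2 ran from -0.12 to 0.00 and from -1.08 to -0.86, and DSC3 over DSC2 from -1.47 to -1.26 and from -0.86 to -0.64. CDH3 over CDH1 ran from -0.35 to -0.07 and from -0.82 to -0.73. These 3 had the same exact p of 0.0286 (adjusted 0.0357), with differences of -0.89, 0.56 and -0.60. CDH2 over CDH1 ran from -4.74 to -3.88 in MCF10A and from -5.17 to -4.73 in DCIS.COM and overlapped (exact p = 0.0571, adjusted 0.0571).

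Expressed as shares of CPM per kilobase of exon, JUP made up 62.6% to 64.0% of JUP and CTNNB1 together in MCF10A and 27.1% to 31.9% in DCIS.COM. Per kilobase of canonical transcript these shares were 42.4% to 43.8% and 14.1% to 17.0%, so that which of these genes led in MCF10A depended on the length used, while the order of the lines did not. Of the 4 desmosomal cadherins, DSG3 held 48.9% to 51.0% in MCF10A and 23.8% to 27.1% in DCIS.COM. DSC2 and DSC3 held 11.8% to 12.3% and 7.06% to 8.13% in MCF10A, and 21.6% to 23.9% and 20.8% to 22.7% in DCIS.COM. DSG2 kept a share of 29.9% to 31.3% and 28.8% to 29.6%. The summed level of these 4 genes was 172 to 190 CPM per kb in MCF10A and 103 to 128 in DCIS.COM, and that of CDH1, CDH2 and CDH3 was 121 to 134 and 69.4 to 76.5. CDH2 was 1.40% to 2.45% of the 3 classical cadherins in MCF10A and 1.23% to 1.67% in DCIS.COM. Per kilobase of canonical transcript CDH2 was 2.21% to 3.84% and 1.98% to 2.67%. On that length DSG3 (40.4% to 42.5%) and DSG2 (41.4% to 43.0%) held overlapping shares of the 4 desmosomal cadherins in MCF10A, and DSG3 held 19.8% to 22.6% in DCIS.COM.

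In GENCODE release 44 on GRCh37, the desmosomal cadherin genes lie close together on chromosome 18. DSC3 (chr18:28569331-28622781) and DSC2 (chr18:28638806-28682485) are on the minus strand, and DSG3 (chr18:29027704-29058665) and DSG2 (chr18:29078140-29128971) on the plus strand. Within this stretch DSC3 was called higher in DCIS.COM while DSG3, and with the empty vector DSG2, were called lower. CDH3 (chr16:68670092-68761371) and CDH1 (chr16:68771195-68869440) follow each other on the plus strand of chromosome 16 and were lower in DCIS.COM, by different amounts as the ratio above shows. CDH2 (chr18:25512843-25757910, minus), CTNNB1 (chr3:41236232-41301587, plus), DSP (chr6:7541571-7586947, plus) and JUP (chr17:39910856-39943183, minus) lie elsewhere. Annotated genes on the opposite strand over CDH1, CDH2, CDH3, DSG2, DSP and DSC2 had no row in the table, and their reads could not be told apart from those of these 6 genes if strand was not used.

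No gene of the other junction lists was called for HOTAIR in either line (limma). At an unadjusted p under 0.05 stood none of them in MCF10A, against 7.28% of all genes. In DCIS.COM there were 2 of 7 desmosome, 2 of 8 adherens junction, 1 of 6 cadherin and 0 of 5 beta-catenin complex genes, against 17.5% of all genes. Of 11 other desmosome and cornified plaque genes, 7 were in the table. Between the lines with the empty vector 2 of the 7 were called higher and 1 lower (median log2 fold change -0.08), against 22.5% and 23.8% of all genes. With HOTAIR 1 was called higher and 1 lower (median 0.11), against 22% and 21.7%. PERP, a tetraspan membrane protein that desmosomes need, was at 9.87 and 9.83 log2 CPM in MCF10A pCDH-empty and at 7.92 and 8.36 in DCIS.COM pCDH-empty, and fell by 1.71 on the log2 scale (adjusted p = 7.68e-06). It fell by 1.09 (adjusted p = 1.16e-04) between the HOTAIR groups. Envoplakin (EVPL), a plakin of the cornified envelope, rose by 0.80 (adjusted p = 1.22e-04) and plakophilin 4 (PKP4) by 0.60 (adjusted p = 9.31e-05), the latter close to the fold threshold and below it without either of 2 libraries (MCF10A pCDH-empty 1, 0.57, or DCIS.COM pCDH-empty 1, 0.54). Between the HOTAIR groups EVPL rose by 0.69 (adjusted p = 3.16e-04), and PKP4 had 0.43 (adjusted p = 7.16e-04, not called). DSG1, DSG4, DSC1 and PKP1 had no row.

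Of 11 other adherens junction genes 8 were in the table, among them the partners alpha-catenin (CTNNA1) and p120-catenin (CTNND1). None was called between the lines (limma), against 46.3% of all genes with the empty vector and 43.7% with HOTAIR. At an unadjusted p under 0.05 stood 5 of the 8 with the empty vector, against 71% of all genes, and 4 with HOTAIR, against 68.7%, and the medians were 0.06 and 0.08. With the empty vector these 5 (CTNND1, NECTIN1, NECTIN3, AFDN and VCL) also had an adjusted p under 0.05, and they missed only the fold threshold. CTNNA1 had a log2 fold change of 0.15 (interval -0.01 to 0.32) and CTNND1 of -0.27 (interval -0.46 to -0.09) with the empty vector. Of 6 genes of the beta-catenin destruction complex and its feedback 5 were in the table and none was called, against 46.3% and 43.7% of all genes. An unadjusted p under 0.05 was found for 4 of the 5 with the empty vector and 3 with HOTAIR, beside 71% and 68.7% of all genes. APC, GSK3B and CSNK1A1 had an adjusted p under 0.05 with the empty vector and missed only the fold threshold. The median log2 fold change of the 5 genes was 0.12 with the empty vector and 0.03 with HOTAIR. With the empty vector these included APC (-0.22) and GSK3B (-0.31), a scaffold and a kinase that mark beta-catenin for degradation. The other genes of this list went the other way, with AXIN1 at 0.12, CSNK1A1 at 0.28 and BTRC at 0.29.

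Of 20 other cadherins only 6 were in the table. With the empty vector 3 were called higher in DCIS.COM and 2 lower (median 1.56), against 22.5% and 23.8% of all genes. Every gene of the table reached 0.97 CPM in at least 2 libraries. CDH11, CDH13 and CDH19, the genes called higher, did so only in DCIS.COM, and CDH4 and CDH16, the genes called lower, only in MCF10A. A difference between the lines was thus a condition of entry for every gene called. These counts and this median therefore cannot be set against the shares of all genes. CDH19, a cadherin known from the Schwann cell lineage, had 3 and 5 reads in MCF10A pCDH-empty and 5298 and 5740 in DCIS.COM pCDH-empty, with 6 and 0 against 7289 and 6910 in the HOTAIR groups. The ratio of summed CDH19 reads, scaled for library size, was 1402 (95% exact Poisson interval 711 to 3248, counting error only) with the empty vector. Per kilobase of exon, CDH19 was at 25.7 to 31.2 CPM in the DCIS.COM libraries, beside 23.147 to 27.001 for DSC3. CDH11, a mesenchymal cadherin, had 0 reads in all 4 MCF10A libraries and 155, 137, 197 and 189 in DCIS.COM, at least 98.9-fold higher with the empty vector against a floor of 3 reads over the group. CDH16, known from kidney, had 197 and 148 reads in MCF10A pCDH-empty and none in DCIS.COM pCDH-empty, at least 113-fold lower in DCIS.COM against the same floor.

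All 6 listed repressors of cadherin genes were called lower in DCIS.COM, with the empty vector (median log2 fold change -2.49) and with HOTAIR (median -2.63). Of all genes, 23.8% and 21.7% were called lower. SNAI1, ZEB1 and ZEB2 stayed under 0.97 CPM in every DCIS.COM library, and every gene of the table reached that level in at least 2 libraries. They entered the table only through MCF10A, so that a lower level in DCIS.COM was a condition of their entry. This condition partly sets the count of 6 and the medians. SNAI2 (Slug) was at 6.30 and 6.54 log2 CPM in MCF10A pCDH-empty and 2.52 and 2.47 in DCIS.COM pCDH-empty, a fall by 3.92 (SE 0.13, adjusted p = 8.22e-08). ZEB1 had 177 and 156 reads in MCF10A pCDH-empty and 4 and 9 in DCIS.COM pCDH-empty (log2 fold change -4.34). ZEB2 had 521 and 474 against 1 and 3 reads, and its summed reads, scaled for library size, were 245-fold higher in MCF10A (95% exact Poisson interval 95.3 to 900, counting error only). The other members were SNAI1 (-1.06), TWIST1 (-0.64) and TWIST2 (-1.04). For HOTAIR over empty vector no repressor was called (limma). At an unadjusted p under 0.05 stood 1 of 6 in MCF10A (SNAI2, 0.32, adjusted p = 0.615), against 7.28% of all genes. In DCIS.COM 2 of 6 did, against 17.5% of all genes. They were SNAI2 (0.38, adjusted p = 0.246) and ZEB2 (1 and 3 reads against 0 and 1 with HOTAIR, adjusted p = 0.279).

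**Figure D3:**
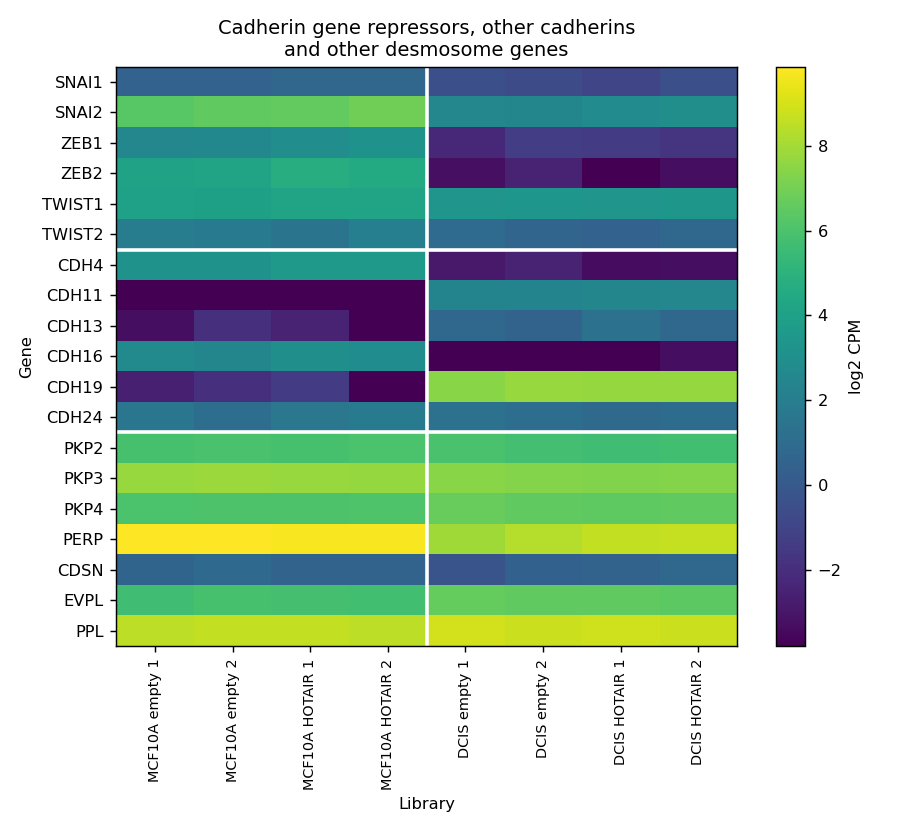
Level (log2 CPM, colour) of 6 repressors of cadherin genes, 6 other cadherins and 7 other desmosome genes (y axis) in the 8 libraries (x axis, DCIS for DCIS.COM), with white lines between the gene lists and between the lines. SNAI2, ZEB1 and ZEB2 are darker in DCIS.COM, CDH19 and CDH11 are darker in MCF10A, and PERP falls from 9.87 and 9.83 in MCF10A pCDH-empty to 7.92 and 8.36 in DCIS.COM pCDH-empty.

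For each gene the 2 genes with the nearest profile over the 8 libraries were found by the root mean square (RMS) difference of centred log2 CPM. The nearest were ARHGAP21 for CDH1 (RMS 0.039), UBAP1 for CDH3 (0.031), NINJ1 for CTNNB1 (0.040), SPECC1 for JUP (0.049), TACC1 for DSP (0.129), C6orf47 for DSG2 (0.034), NRIP1 for DSG3 (0.061), SUCO for DSC2 (0.030) and CDK11A for DSC3 (0.040). For CDH2 it was NRP1 (RMS 0.104, Pearson r 0.987), a co-receptor of semaphorins and VEGF, followed by SLC8A1 (0.130). The 8 libraries fall into the 2 lines, so that these profiles mostly carry the difference between lines, and none of the nearest genes was another of the 10.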

How the data were processed

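RNA-seq libraries (8, ScriptSeq v2, paired ends of 76 nt, 2 libraries for each of 4 groups taken from the labels) were aligned by the authors to hg19 with Rsubread, counted with featureCounts on UCSC known genes and normalized with edgeR. The values deposited by the authors are log2 CPM for 13771 genes, 343 of them without a symbol, and every gene reached 0.97 CPM in at least 2 libraries. The normalization factors, the prior and the strand setting are not given in the sources used here. No per-sample column was left unused.

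From these values the linear scale, whole reads (the values rise from a prior of 0.0717 CPM in equal steps; 100% came out whole within 0.1 reads), fold changes and tests were computed. The test was limma 3.58.1 in R 4.3.3 (4 group means over all 8 libraries, eBayes with a mean-variance trend), with Benjamini-Hochberg adjustment over all genes. A gene was called at an adjusted p under 0.05 and at least 1.5-fold, and in the interaction at an adjusted p under 0.05. Fold changes are on the log2(CPM + prior) scale and understate the change of genes with few reads. The script was tested on simulated data.

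The members and lists were chosen with earlier results of these data known. Named genes were all 10 members, HOTAIR, and in each list those called for HOTAIR or the 3 largest changes called between lines with the empty vector. Genes named beyond this (CTNNA1, CTNND1, APC, GSK3B, AXIN1, CSNK1A1, BTRC, TP63, KRT7, ESR1, SNAI1, TWIST1, TWIST2) were chosen after their values were seen. Lengths and positions came from GENCODE 44 on GRCh37, promoters from RefSeq on GRCh38.p14. Replicate numbers were checked for pairing and did not pair the libraries. Alternatives were pseudocounts of 0.1 and 1 CPM, median centring, quantile normalization, a mean CPM of at least 2, no trend, a block for the replicate number, a separate fit for each comparison, other fold thresholds and each library left out. After the data were seen, limma-voom on recovered reads, loess correction (span 0.4) on GC content or transcript length (known for 95.5% of genes), and canonical transcript lengths were added. The remaining steps used Python 3.11.15 with scipy 1.17.1, numpy 2.4.6 and pandas 2.3.3.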

Additional observations from a re-analysis of the deposited data

Results flagged for a closer look

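The HOTAIR transcript rose less over the empty vector in DCIS.COM than in MCF10A. Its log2 fold change was 7.28 in MCF10A and 5.41 in DCIS.COM, and the interaction, tested with limma, was -1.873 (DCIS.COM minus MCF10A, adjusted p = 0.0208). The HOTAIR libraries differed by less than the empty-vector libraries did: between the lines HOTAIR was 2.99-fold higher in DCIS.COM with the empty vector (adjusted p = 1.08e-05), and its log2 fold change was -0.29 (adjusted p = 0.0694) with the HOTAIR vector. The interaction lost its call without a mean-variance trend (adjusted p = 0.132), with limma-voom (0.0507), and without any 1 of 6 libraries (all but the DCIS.COM pCDH-empty libraries, 0.133 to 0.376). HOTAIR is annotated over HOXC11 on the opposite strand, which also has a row.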

How the results depend on the processing

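The 9 members called between the lines with the empty vector and the 7 called with HOTAIR both came to 2 at a log2 fold change of at least 1.5, where genes called fell to 2418 (from 6370) and 2357 (from 6018). Genes called for HOTAIR in MCF10A (3) were 1 at that threshold, 1 with a separate fit, 6 with a pseudocount of 1 CPM, 5 with limma-voom, 16 with the GC correction, 5 with the length correction, and 1 whichever library was left out. In DCIS.COM (12) they were 1 at that threshold, 6 without the trend, 0 with a separate fit (the cause was not tested), 52 with the GC correction, and 1 to 1403 with a library left out (60 without DCIS.COM pCDH-empty 1, 1403 without pCDH-empty 2). Interaction calls (6) were 10 with a pseudocount of 1 CPM, 0 without the trend, 23 with the GC correction, and 0 to 4414 with a library left out (89 without DCIS.COM pCDH-empty 1, 4414 without pCDH-empty 2), when 0 to 5 members were called. The lone library left in a group was assumed to vary like the other groups.

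The replicate numbers did not pair the libraries (correlations of replicate differences -0.016 to 0.0661). With the replicate block, DCIS.COM had 20 calls and the interaction 0, and the HOTAIR interaction lost its call (adjusted p = 0.0592).

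Signs turned for members that were not called. In DCIS.COM these were CDH1 with quantile normalization (2.99e-04) and, with the GC correction, CDH1 (0.0409), JUP (0.0488) and DSC3 (-0.0405). In the interaction they were CTNNB1 with median centring (-0.00261) and, with the GC correction, CDH3 (0.0449), CTNNB1 (-0.0160), JUP (0.00395) and DSC3 (-0.128). With a library left out, MCF10A values ran from -0.186 to 0.0374 for CDH1, -0.303 to 0.202 for DSP, -0.0991 to 0.0121 for DSG2 and -0.0619 to 0.161 for DSC3. DCIS.COM values ran from -0.0754 to 0.0449 for CDH1, -0.0493 to 0.123 for CDH3, -0.247 to 0.175 for JUP and -0.0153 to 0.198 for DSC3. Interaction values ran from -0.0526 to 0.170 for CDH1, -0.141 to 0.0313 for CDH3, -0.0256 to 0.0678 for CTNNB1, -0.339 to 0.0829 for JUP, -0.410 to 0.0950 for DSP and -0.0695 to 0.153 for DSC3. Between the lines with the empty vector DSC2 ran from -0.00835 to 0.335.

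The calls of CDH3, CTNNB1, DSP, DSG3 and DSC3 between the lines held with both vectors under every alternative run except, for CDH3, DSC3 and CTNNB1, and for DSG3 with HOTAIR, the log2 threshold of 1.5. With the empty vector CDH1 fell below 1.5-fold with median centring (-0.55) and length correction (-0.54), and CDH2 with quantile normalization (-0.56). With HOTAIR, DSG2 passed it without MCF10A pCDH-HOTAIR 1 (-0.60) and DSC2 with the length correction (0.59). With 2 libraries a group, the intervals given beside each value set what could be seen.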
